A study of Homo sapiens with 12 samples.

Results

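PIM1, PIM2, PIM3, CISH, SOCS1, SOCS2, SOCS3, STAT5A and STAT5B were followed across 12 RNA-seq libraries of MOLM-13 cells. These are 3 PIM kinase genes, 4 feedback inhibitor genes and both STAT5 genes, found by their symbols among the 60668 genes of the count files, 9 members in all. MOLM-13 is an established human acute myeloid leukaemia line, and cells of every group carry its MLL-AF9 fusion and its FLT3 internal tandem duplication. The cells were cultured for 8 days with gilteritinib and MI-3454 together (called the combination here), with gilteritinib alone, with MI-3454 alone or with DMSO, the solvent control, and each group has 3 libraries. Gilteritinib inhibits the FLT3 kinase, and MI-3454 blocks the binding of menin to MLL1. No source used here gives the doses. The cultures were seeded in triplicate from a single line, so the p-values measure the spread between such cultures and not between patients or lines.

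FLT3 with an internal tandem duplication signals without its ligand, and phosphorylation of STAT5 is among its known outputs. STAT5A and STAT5B are a pair of closely related transcription factors that dimerise, enter the nucleus and switch on target genes. Among these targets are the PIM genes, whose serine/threonine kinases are active as soon as they are made and favour survival and protein synthesis, and the genes for CISH and the SOCS proteins, which bind activated receptors or Janus kinases through an SH2 domain and end the signal. RNA levels of PIM and SOCS genes are therefore widely read in leukaemia cells as an output of FLT3 and STAT5 signalling.

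Total gene counts ranged from 6.47 to 12.1 (in units of 1e6) per library, and all 9 members passed the filter on low counts. In every library of every group, all 10 markers of a myeloid leukaemia line, among them PTPRC, CD33 and SPI1, had at least 1 CPM (counts per 1e6 counts of tested genes). Their levels were not constant. They summed to 15498 to 16855 CPM with the combination and 3261 to 3395 CPM with gilteritinib. The sum was 9813 to 11123 CPM with MI-3454 and 2809 to 3014 CPM with DMSO. The 10 markers did not move together. By edgeR's test, described below, 6 rose and 3 fell with the combination, where 29.2% of all tested genes rose and 28.4% fell. With gilteritinib 3 rose and 1 fell (6.92% and 8.18% of all tested genes). With MI-3454 4 rose and 3 fell (10.1% and 8.95%). RN7SL1, a signal recognition particle RNA, took its largest share of the group's counts in combination 1 (1.66%), gilteritinib 2 (2.88%), MI-3454 3 (4.56%) and DMSO 2 (4.27%). Leaving out these 4 libraries together changed no member's call in the 6 comparisons except that of STAT5A, given with its values. PIM3 and STAT5A were at their highest of the group in all 4 of them, and SOCS1 in MI-3454 3 was 1.88 times the mean of the other 2 libraries of its group. Uniquely placed reads outside annotated features made up 32.6% ± 4.02 (SD, n = 3) with the combination, 17.0% ± 1.24 with gilteritinib, 21.0% ± 4.13 with MI-3454 and 18.1% ± 2.03 with DMSO. The part of these technical differences in the results was not tested.

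Levels are given as CPM with TMM scaling over the 12 libraries. Differences are log2 fold changes with their standard errors (SE) from edgeR's quasi-likelihood test, called at a Benjamini-Hochberg adjusted p under 0.05 over all 13972 tested genes. With the combination, 7 of the 9 members fell relative to DMSO, where 28.4% of all tested genes fell, and STAT5A and STAT5B did not pass the test. None of the 9 rose by edgeR's test with the combination, against 29.2% of all tested genes, and the count was also 0 at an unadjusted p under 0.05 and by DESeq2. With gilteritinib, PIM1, CISH, SOCS1 and SOCS2 fell, 4 of 9 members against 8.18% of all tested genes, and PIM2 and STAT5A rose, 2 of 9 against 6.92%. With the replicate number as a block, SOCS3 fell too, 5 of 9 members against 17.6% of all tested genes, and 2 of 9 rose against 17.7%. The log2 change of SOCS3 was -0.39 ± 0.13 both with and without the block. Its call thus came with a smaller p and not with a larger change. For PIM1 the block took edgeR's adjusted p from 3.51e-09 to 1.18e-55. How far a pairing of libraries accounts for the smaller p-values was not tested. With MI-3454, PIM1, CISH, SOCS1 and SOCS2 fell, again 4 of 9, against 8.95% of all tested genes. By edgeR's test 0 of 9 rose with MI-3454, against 10.1% of all tested genes, 1 (SOCS3) at an unadjusted p under 0.05 and 0 by DESeq2. The 3 comparisons share the DMSO libraries. In RNA from whole cultures, fewer cells that express a gene and less of its RNA per cell cannot be told apart.

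**Figure D1:**
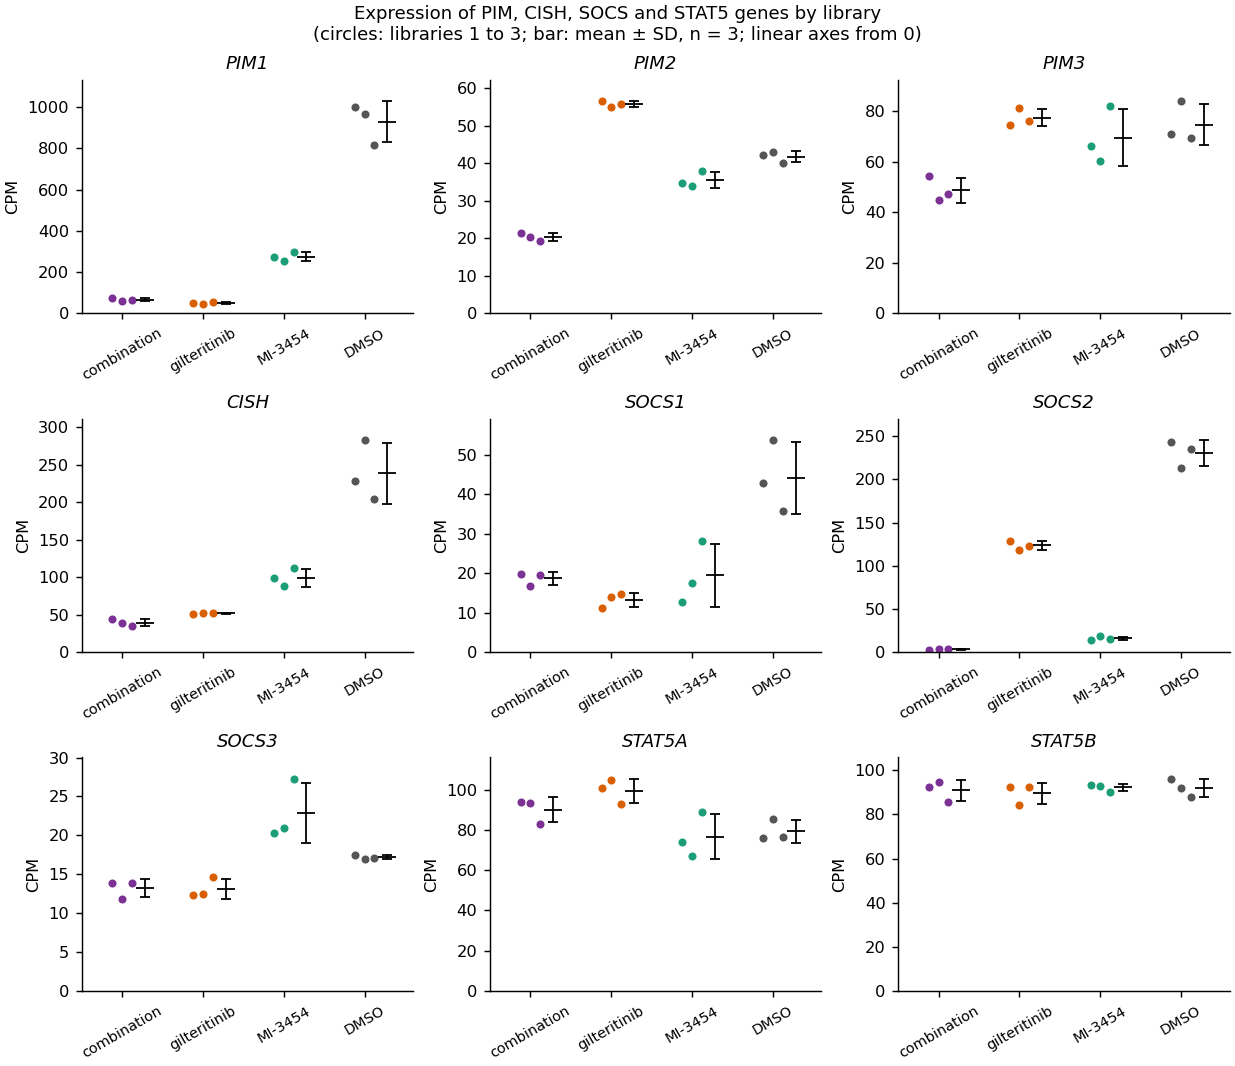
CPM of each of the 9 genes (linear axes from 0) in the combination, gilteritinib, MI-3454 and DMSO libraries. Circles are libraries and bars are the mean ± SD of 3. PIM1, CISH, SOCS1 and SOCS2 are highest with DMSO without overlap, PIM2 is highest with gilteritinib (55.7 CPM) and lowest with the combination (20.4 CPM), and STAT5B lies between 84.2 and 96.2 CPM in all 12 libraries.

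Markers of maturing myeloid cells were followed in the same libraries. Of all tested genes 29.2% rose with the combination, 6.92% with gilteritinib and 10.1% with MI-3454. Of 11 monocyte and macrophage markers, 9 were tested, and 8 rose with the combination, 2 with gilteritinib and 9 with MI-3454. Gilteritinib libraries overlapped with DMSO libraries in the summed level of the 11, and the other treatments lay above both. Their summed level was 747 to 758 CPM with the combination, 105 to 115 CPM with gilteritinib, 523 to 566 CPM with MI-3454 and 100.02 to 116 CPM with DMSO, while CD163, a macrophage scavenger receptor, had no counts in any group. Of 7 neutrophil markers, the 3 tested (CSF3R, CXCR2 and FCAR) rose in each comparison. CSF3R, which is also among the receptors counted further on, made up most of their level, at 793 to 822 CPM with the combination, 367 to 420 CPM with gilteritinib, 524 to 685 CPM with MI-3454 and 277 to 336 CPM with DMSO. The other neutrophil markers summed to 92.1 to 97.6 CPM with the combination, 16.3 to 19.6 CPM with gilteritinib, 41.9 to 42.2 CPM with MI-3454 and 6.16 to 7.55 CPM with DMSO. Neutrophil FCGR3B had no counts with the combination, gilteritinib or DMSO. In no library did LTF exceed 0.22 CPM, MMP8 0.106 CPM or CAMP 1.30 CPM, so that sum came mostly from CXCR2 and FCAR. Summed T cell markers did not exceed 3.16 CPM, summed B cell markers 1.71 CPM and summed erythroid markers 0.824 CPM in any library. The 4 epithelial markers summed to 5.26 to 7.20 CPM with the combination, 14.1 to 15.1 CPM with gilteritinib, 10.4 to 14.5 CPM with MI-3454 and 10.2 to 13.9 CPM with DMSO, with no counts of CDH1 in any group, and 1 of the 2 tested fell with the combination. Whether maturation of the cells takes part in the values of PIM, CISH and SOCS genes was not tested.

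The genes of the transcription factors themselves differed little between groups. STAT5B (ENSG00000173757.9, GRCh38 chromosome 17, 42199168 to 42276707, minus strand) had 92.5, 94.6 and 85.5 CPM with the combination, 92.5, 84.2 and 92.4 CPM with gilteritinib, 93.5, 93.1 and 90.2 CPM with MI-3454 and 96.2, 92.0 and 87.8 CPM with DMSO. All 4 groups overlapped. The 95% interval of its log2 change reached from -0.23 to 0.20 with the combination, from -0.24 to 0.17 with gilteritinib and from -0.23 to 0.24 with MI-3454.

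STAT5A, its neighbour on the same chromosome (ENSG00000126561.16, 42287547 to 42311943, plus strand), had 94.0, 93.3 and 83.0 CPM with the combination, 101, 105 and 92.9 CPM with gilteritinib, 74.2, 66.8 and 89.1 CPM with MI-3454 and 75.8, 85.6 and 76.4 CPM with DMSO. The gilteritinib libraries all lay above the DMSO libraries, and the combination and MI-3454 libraries overlapped with them. STAT5A rose 0.33 ± 0.10 with gilteritinib (edgeR adjusted p = 0.0459), a call that was lost without gilteritinib 1, 2 or 3 or DMSO 1 or 3 (adjusted p from 0.0897 to 0.161) and with total counts as the library size (adjusted p = 0.0741). Its change of 0.19 ± 0.11 with the combination did not pass (edgeR adjusted p = 0.141), but passed without DMSO 2 (0.0232), without the 4 libraries highest in RN7SL1 (0.0456) and with total counts as the library size (0.024). Of the 50-base windows of the longest transcripts, 11.9% for STAT5A and 10% for STAT5B occur in both genes, so some reads cannot be given to either.

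PIM1, a kinase gene induced by STAT5 in many blood cells, held the highest level per length of the 9 members with DMSO and fell in all 3 treatments. PIM1 (ENSG00000137193.14, chromosome 6, 37170203 to 37175426, plus strand) had 74.1, 62.1 and 64.5 CPM with the combination, 49.2, 47.8 and 54.3 CPM with gilteritinib, 274, 253 and 299 CPM with MI-3454 and 1003, 969.6 and 816 CPM with DMSO. No groups overlapped, and the order was DMSO, MI-3454, combination, gilteritinib. PIM1 fell by 3.79 ± 0.13 on the log2 scale with the combination, a 13.9-fold lower level (edgeR adjusted p = 6.63e-13). With gilteritinib it fell by 4.20 ± 0.13, or 18.4-fold (edgeR adjusted p = 3.51e-09), the 13th lowest log2 change of 13972 tested genes. With MI-3454 the decrease was 3.38-fold, a log2 change of -1.76 ± 0.13 (edgeR adjusted p = 1.71e-06).

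PIM2 encodes another kinase of the family, and it moved in opposite directions with gilteritinib and with the combination. PIM2 (ENSG00000102096.9, chromosome X, 48913182 to 48919024, minus strand) had 21.5, 20.3 and 19.3 CPM with the combination, 56.4, 54.8 and 55.8 CPM with gilteritinib, 34.7, 34.0 and 37.9 CPM with MI-3454 and 42.1, 43.1 and 40.1 CPM with DMSO. The 4 groups did not overlap, and gilteritinib libraries were the highest. With the combination PIM2 fell by 1.03 ± 0.12 on the log2 scale, or 2.04-fold (edgeR adjusted p = 1.34e-06). It rose 0.42 ± 0.10 with gilteritinib, a 1.33-fold higher level (edgeR adjusted p = 0.0135), and this call was lost without gilteritinib 1 (0.0705), gilteritinib 3 (0.0686) or DMSO 3 (0.0546). With MI-3454 its log2 change of -0.23 ± 0.12 did not pass (edgeR adjusted p = 0.208).

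PIM3, the third kinase gene (ENSG00000198355.5, chromosome 22, 49960513 to 49964080, plus strand), had 54.2, 44.7 and 47.0 CPM with the combination, 74.6, 81.1 and 76.2 CPM with gilteritinib, 66.1, 60.3 and 82.1 CPM with MI-3454 and 70.9, 83.9 and 69.1 CPM with DMSO. Its combination libraries lay below all others, and the other 3 groups overlapped. PIM3 fell by 0.62 ± 0.12 on the log2 scale with the combination (edgeR adjusted p = 0.000301). With gilteritinib the 95% interval of its log2 change was -0.18 to 0.28, and with MI-3454 it was -0.41 to 0.20.

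**Figure D2:**
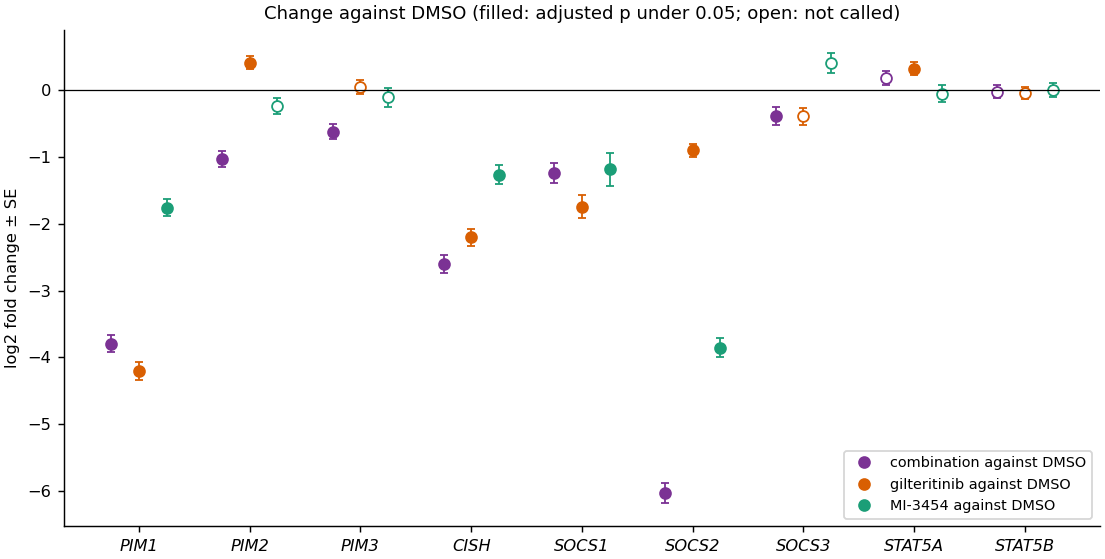
Log2 fold change ± SE of each gene with the combination, gilteritinib and MI-3454, each against DMSO. Filled circles passed edgeR's test at an adjusted p under 0.05 and open circles did not. SOCS2 has its lowest value with the combination (-6.04) and PIM1 with gilteritinib (-4.20), while both STAT5 genes stay between -0.05 and 0.33.

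Among the feedback inhibitors, CISH fell in all 3 treatments, most with the combination. CISH binds phosphorylated cytokine receptors, and its gene is a classical direct target of STAT5. CISH (ENSG00000114737.15, chromosome 3, 50606490 to 50611831, minus strand) had 44.0, 39.3 and 34.4 CPM with the combination, 50.7, 52.1 and 52.5 CPM with gilteritinib, 98.4, 88.1 and 112 CPM with MI-3454 and 228, 283 and 204 CPM with DMSO. No groups overlapped. The log2 change was -2.60 ± 0.14 with the combination (6.06-fold lower, edgeR adjusted p = 9.56e-11). It was -2.20 ± 0.13 with gilteritinib (4.60-fold lower, edgeR adjusted p = 3.64e-07). With MI-3454 it was -1.26 ± 0.15 (2.40-fold lower, edgeR adjusted p = 7.28e-05). CISH shares 218 exonic bases with MAPKAPK3 on the opposite strand, and where the counting ignored strand, reads there cannot be told apart. MAPKAPK3 had 16439 counts over the 12 libraries, against 12782 for CISH.

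The levels of CISH and PIM1 were the most alike of any pair of members across libraries, and their promoter windows differ in their content of the STAT core motif TTCNNNGAA. The motif reads the same on both strands, and N is any base. The windows come from RefSeq on GRCh38.p14 and run from 250 bases before to 50 bases after the annotated start, with motif matches in capitals.
CISH, chr3:50611725-50612024, minus strand: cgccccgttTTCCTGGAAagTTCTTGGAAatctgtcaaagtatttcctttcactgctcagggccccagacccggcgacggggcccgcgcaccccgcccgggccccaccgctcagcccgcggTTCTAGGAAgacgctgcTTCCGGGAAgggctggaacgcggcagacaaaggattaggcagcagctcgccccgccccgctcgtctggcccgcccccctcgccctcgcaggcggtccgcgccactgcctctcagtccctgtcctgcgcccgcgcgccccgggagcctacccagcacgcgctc
PIM1, chr6:37169902-37170201, plus strand: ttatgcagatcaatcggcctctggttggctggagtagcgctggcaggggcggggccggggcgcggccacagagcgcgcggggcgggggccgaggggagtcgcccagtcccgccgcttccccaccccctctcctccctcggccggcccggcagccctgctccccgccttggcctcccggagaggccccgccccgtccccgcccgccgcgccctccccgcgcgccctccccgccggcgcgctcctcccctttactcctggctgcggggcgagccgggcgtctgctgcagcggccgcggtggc
The CISH window holds 4 matches that do not overlap, with first bases 241, 230, 129 and 112 bases before the start. Of 35116 such windows in the table, 7.66% hold the motif, 0.456% hold at least 2 copies and 7 windows hold at least 4. A window was present for 8 of the 9 members, and the windows of the other 7 with one (PIM1, PIM2, PIM3, SOCS1, SOCS3, STAT5A and STAT5B) have no match. The SOCS3 windows, 78360876 to 78361175 and 78359618 to 78359917, miss the start of the counted gene at 78360077. The bases around that start were not searched. The windows of PIM3 (49960522 to 49960821) and STAT5B (42276342 to 42276641) lie inside the counted genes and miss their first bases. The PIM1 window ends at 37170201, before the counted gene starts at 37170203, and holds no base of that gene. A match is a description of the letters, and sites outside these windows were not searched.

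SOCS1, whose product blocks Janus kinases directly, also fell in all 3 treatments. SOCS1 (ENSG00000185338.5, chromosome 16, 11254405 to 11256200, minus strand) had 19.8, 16.8 and 19.6 CPM with the combination, 11.3, 13.9 and 14.6 CPM with gilteritinib, 12.6, 17.5 and 28.3 CPM with MI-3454 and 42.7, 53.7 and 35.6 CPM with DMSO. DMSO libraries were above all others, and the MI-3454 libraries spread across the range of both other treatments. The log2 change was -1.23 ± 0.15 with the combination (edgeR adjusted p = 2.82e-06), -1.74 ± 0.17 with gilteritinib (2.24e-05) and -1.18 ± 0.25 with MI-3454 (0.00533). The MI-3454 value was -1.55 without MI-3454 3.

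SOCS2, a regulator of growth hormone and cytokine receptors, had the largest decrease of the 9 members with the combination and with MI-3454. SOCS2 (ENSG00000120833.14, chromosome 12, 93569814 to 93583487, plus strand) had 2.87, 3.71 and 4.12 CPM with the combination, 129, 118 and 123 CPM with gilteritinib, 14.0, 18.2 and 15.5 CPM with MI-3454 and 243, 213 and 235 CPM with DMSO. The groups did not overlap, and the order was DMSO, gilteritinib, MI-3454, combination. The combination values rest on 33, 35 and 29 reads. SOCS2 fell by 6.04 ± 0.15 on the log2 scale with the combination, or 65.8-fold (edgeR adjusted p = 1.51e-14). It fell by 3.85 ± 0.14 with MI-3454, or 14.5-fold (edgeR adjusted p = 9.01e-09), the 43rd lowest log2 change of 13972. With gilteritinib it fell by 0.90 ± 0.10, or 1.86-fold (edgeR adjusted p = 7.48e-05). SOCS2 shares 277 exonic bases with SOCS2-AS1 on the opposite strand, a gene with 853 counts over the 12 libraries against 11277 for SOCS2.

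SOCS3, a feedback inhibitor of the receptors that signal through gp130 and of the G-CSF receptor, had the smallest log2 change of the 4 inhibitor genes in each of the 3 comparisons. SOCS3 (ENSG00000184557.4, chromosome 17, 78356778 to 78360077, minus strand) had 13.8, 11.9 and 13.9 CPM with the combination, 12.3, 12.5 and 14.6 CPM with gilteritinib, 20.3, 21.0 and 27.3 CPM with MI-3454 and 17.5, 17.0 and 17.1 CPM with DMSO. The combination and gilteritinib libraries lay below DMSO and the MI-3454 libraries above it. SOCS3 fell by 0.38 ± 0.14 on the log2 scale with the combination (edgeR adjusted p = 0.0287), which was lost without combination 2 (0.161), DMSO 1 (0.0638) or DMSO 3 (0.0524) and with total counts as the library size (0.115). Its change with gilteritinib, -0.39 ± 0.13, did not pass (edgeR adjusted p = 0.0676). It passed with the replicate number as a block (0.0121) and without DMSO 2 (0.0457). With MI-3454 the change was 0.41 ± 0.15 (edgeR adjusted p = 0.0839), and 0.0296 when all 12 libraries were fitted together.

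Per kilobase of exon, the make-up of the families differed between groups. The summed level of the 3 PIM genes was 49.6 ± 4.44 CPM per kb with the combination, 68.5 ± 1.12 with gilteritinib, 134 ± 13.0 with MI-3454 and 358 ± 35.7 with DMSO (SD, n = 3 each). PIM1 made up 45.3% ± 0.264 of that sum with the combination, 24.7% ± 1.49 with gilteritinib, 69.3% ± 1.05 with MI-3454 and 87.2% ± 1.04 with DMSO. With gilteritinib PIM3 was the largest part, at 45.8% ± 1.76, and PIM2 held 29.5% ± 0.825, against 14.9% ± 0.853 with the combination, 9.66% ± 0.407 with MI-3454 and 4.25% ± 0.302 with DMSO. The groups did not overlap in the PIM1 share. With DMSO the order of levels per length among the 9 members was PIM1 (312 CPM per kb), CISH (46.7), SOCS2 (34.0), PIM3 (30.3), SOCS1 (24.5), PIM2 (15.1), STAT5B (14.3), STAT5A (13.8) and SOCS3 (6.28). In that order the libraries of SOCS2 and PIM3, of PIM3 and SOCS1, of PIM2 and STAT5B, and of STAT5B and STAT5A overlapped. The order depends on the length used: with the longest transcript in place of all exons, SOCS2 (61.7 CPM per kb) stood above CISH (47.3), and STAT5A (18.4) above STAT5B (18.0).

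**Figure D3:**
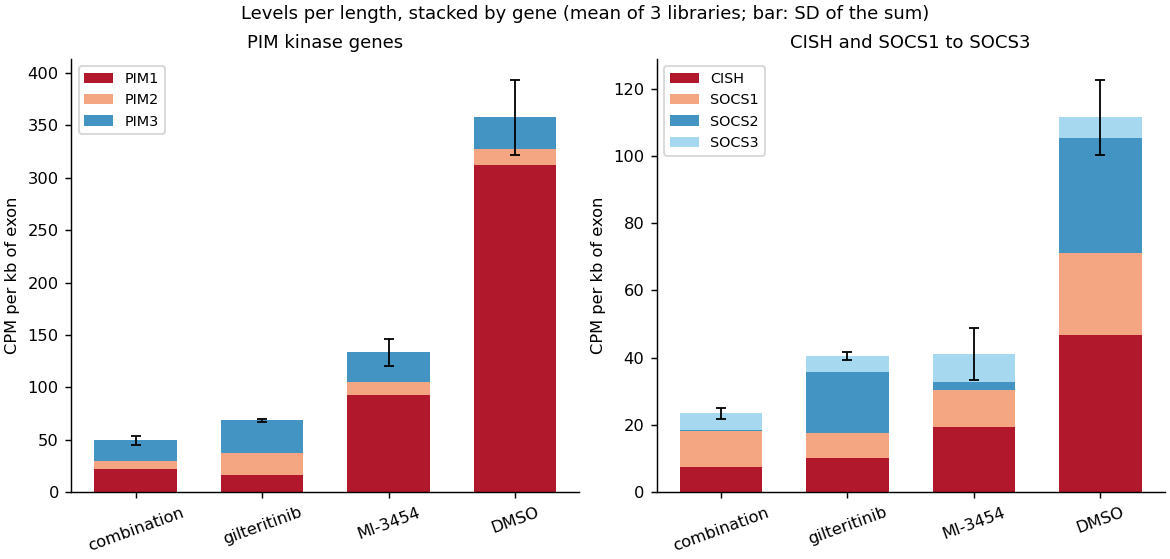
Mean CPM per kb of exon, stacked by gene, for the PIM genes (left) and for CISH and SOCS1 to SOCS3 (right) with the combination, gilteritinib, MI-3454 and DMSO. Bars start at 0 and the error bar is the SD of the sum over 3 libraries. PIM1 makes up 45.3%, 24.7%, 69.3% and 87.2% of the PIM sum in these groups, and SOCS2 makes up 2.26%, 45.0%, 5.85% and 30.8% of the inhibitor sum.

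The summed level of CISH, SOCS1, SOCS2 and SOCS3 was 23.5 ± 1.60 CPM per kb with the combination, 40.6 ± 1.22 with gilteritinib, 41.0 ± 7.76 with MI-3454 and 111 ± 11.2 with DMSO (SD, n = 3 each). With the longest transcript as the length the sums were 24.1, 55.6, 43.3 and 140.01 CPM per kb in these groups. SOCS2 made up 45.0% ± 2.58 of the sum with gilteritinib and 5.85% ± 1.30 with MI-3454. CISH made up 25.0% ± 0.528 with gilteritinib and 48.0% ± 5.19 with MI-3454. With the combination SOCS1 was the largest part, at 44.5% ± 2.08, and SOCS2 held 2.26% ± 0.502. The SOCS2 share depends on the length used: with the longest transcript in place of all exons it was 4.0% with the combination, 59.5% with gilteritinib, 10.04% with MI-3454 and 44.3% with DMSO.

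The combination was next compared with each single agent. Relative to gilteritinib, PIM2, PIM3, CISH and SOCS2 fell, 4 of 9 members where 30.3% of all tested genes fell, and PIM1 and SOCS1 rose, 2 of 9 where 30.1% rose. PIM1 was 0.42 ± 0.09 higher on the log2 scale with the combination than with gilteritinib, at 66.9 ± 6.32 CPM and 50.4 ± 3.44 CPM (edgeR adjusted p = 0.00117). SOCS1 was 0.52 ± 0.13 higher (edgeR adjusted p = 0.004, and 0.0813 when all 12 libraries were fitted together). SOCS2 fell by 5.14 ± 0.12, a 35.2-fold lower level (edgeR adjusted p = 8.68e-13), and PIM2 fell by 1.44 ± 0.09 (7.97e-09). PIM3 fell by 0.66 ± 0.09 (edgeR adjusted p = 2.3e-05) and CISH fell by 0.38 ± 0.10 (0.00313). For SOCS3 the 95% interval of the log2 change was -0.27 to 0.30.

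Relative to MI-3454, 6 of 9 members fell with the combination, where 15.1% of all tested genes fell. None rose by edgeR's test, against 14.1% of all tested genes, and the count was also 0 at an unadjusted p under 0.05 and by DESeq2. PIM1 fell by 2.03 ± 0.11 in log2 units (edgeR adjusted p = 3.68e-07), and the log2 change was -2.17 ± 0.20 for SOCS2 (1.55e-05), -1.33 ± 0.12 for CISH (1.66e-05), -0.79 ± 0.11 for PIM2 (0.000414) and -0.79 ± 0.15 for SOCS3 (0.00274). PIM3 fell by 0.50 ± 0.13 (edgeR adjusted p = 0.0115), which was lost without combination 2 (0.0634) or combination 3 (0.0511). SOCS1 had a log2 change of -0.05 ± 0.23 with a 95% interval of -0.55 to 0.46, and 0.32 without MI-3454 3. STAT5A was at 0.24 ± 0.12 (edgeR adjusted p = 0.134). It passed without MI-3454 3 (0.00427), without the 4 libraries highest in RN7SL1 (0.00393) and with total counts as the library size (0.0281). Scaling by total counts shifted the median log2 change of all tested genes to 0.10 for the combination against DMSO and 0.13 against gilteritinib. With that scaling, higher calls made up 61.5% of all calls against gilteritinib (49.9% with TMM) and 63.2% against MI-3454 (48.4% with TMM).

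The interaction term asks whether the log2 change with both agents departs from the sum of the changes with each. It passed the test for 6 of the 9 members, where 15.3% of all tested genes passed, negative for 3 members (8.74% of genes) and positive for 3 (6.55% of genes). PIM1, CISH and SOCS1 were higher with the combination than the product of both single-agent folds, and PIM2, PIM3 and SOCS2 were lower. With total counts as the library size, positive terms made up 58.1% of all calls, against 42.8% with TMM, and the median over all tested genes moved to 0.11.

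PIM1 had the largest term of the 9, 2.17 ± 0.16 on the log2 scale (edgeR adjusted p = 3e-07). Its observed mean with the combination was 66.9 CPM, against 14.9 CPM for the product of the folds. SOCS1 had a term of 1.69 ± 0.32 (edgeR adjusted p = 0.00266), with 18.8 CPM observed against 5.86 CPM from the product. For CISH the term was 0.87 ± 0.18 (edgeR adjusted p = 0.0048), with 39.2 against 21.6 CPM. For SOCS2 it was -1.29 ± 0.18 (edgeR adjusted p = 0.000271), with 3.56 CPM observed against 8.53 CPM from the product. For PIM2 it was -1.21 ± 0.13 (edgeR adjusted p = 1.52e-05), with 20.4 against 47.4 CPM. PIM3 had -0.56 ± 0.17 (edgeR adjusted p = 0.0352), with 48.6 against 71.9 CPM.

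The PIM3 term was the least stable of these. It was lost without combination 2 or 3, without gilteritinib 1, 2 or 3, without MI-3454 1 or 3 and without DMSO 1 or 3 (edgeR adjusted p from 0.0581 to 0.118), with the replicate number as a block (0.0648) and with total counts as the library size (0.0585). The terms of SOCS3 (95% interval -0.82 to 0.01), STAT5A (-0.42 to 0.23) and STAT5B (-0.23 to 0.26) did not pass the test.

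**Figure D4:**
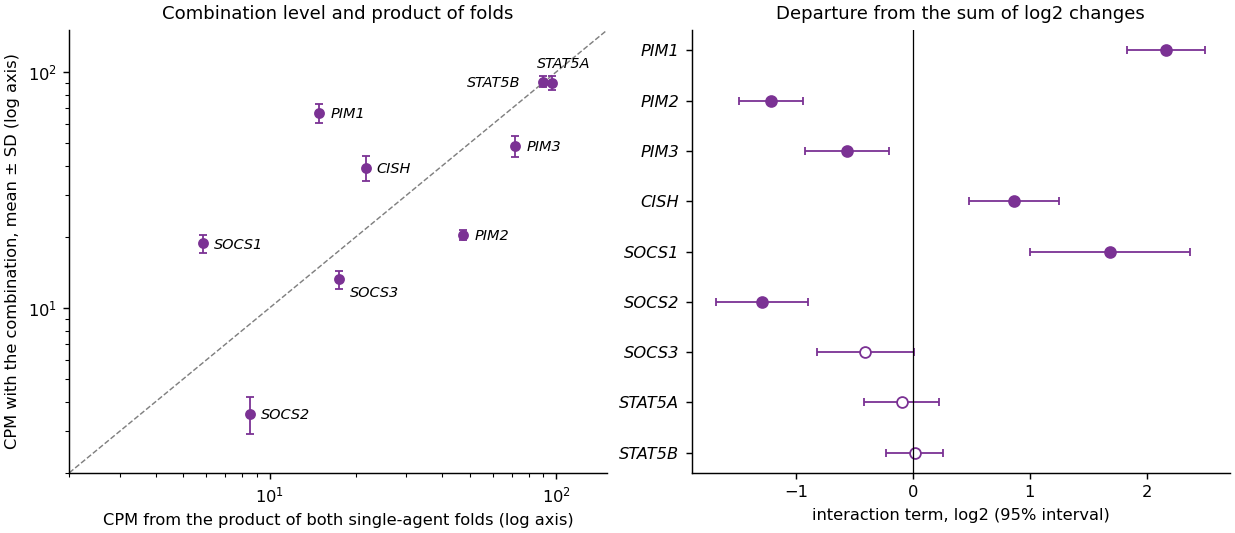
Left, mean CPM ± SD with the combination against the CPM given by the product of both single-agent folds (both axes log, dashed line where they are equal). Right, the interaction term of each gene on the log2 scale with its 95% interval, filled where edgeR's adjusted p was under 0.05. PIM1, CISH and SOCS1 lie above the line (terms 2.17, 0.87 and 1.69), and PIM2, PIM3 and SOCS2 below it (-1.21, -0.56 and -1.29).

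Across the 12 libraries, log2 CPM of PIM1 and CISH had a Pearson r of 0.965, and PIM2 and PIM3 one of 0.901. PIM2 and SOCS2 had an r of 0.871, PIM1 and SOCS2 of 0.437 and PIM1 and PIM2 of 0.147. These values are descriptions over libraries that share 4 groups. Among 9778 other protein-coding genes with a mean of at least 5 CPM, those most like PIM1 were ARRB1 (r = 0.987), TRIM16 (0.982) and RNF41 (0.978). For CISH they were VEGFA (0.990), CARS1 (0.988) and PTP4A3 (0.986). The genes most like PIM2 were GATA2 (0.996), JUP (0.993) and VPS72 (0.989), and GATA2 had 24.6 CPM with the combination, 306 CPM with gilteritinib, 99.5 CPM with MI-3454 and 172 CPM with DMSO. For PIM3 they were SREBF2 (0.992), GPC1 (0.986) and GNB1 (0.984). SOCS2 was most like DACT3 (0.995), MEF2C (0.995) and WNT10B (0.992), and MEF2C had 20.3 CPM with the combination, 295 CPM with gilteritinib, 72.4 CPM with MI-3454 and 368 CPM with DMSO. The genes nearest to SOCS1 were ANXA2 (0.929), SH2B3 (0.928) and ICAM1 (0.926), and to SOCS3 they were ARC (0.939), EMP1 (0.920) and ALAS1 (0.919). The r compares the shape of a profile and not the size of its changes. With gilteritinib and with DMSO, PIM1 had 50.4 and 930 CPM and ARRB1 had 127 and 223 CPM. In the same groups TRIM16 had 11.1 and 107 CPM and RNF41 had 91.2 and 153 CPM.

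Other genes of the pathway were counted by list in the comparisons against DMSO, where the median log2 change over all tested genes lay between -0.00066 and 0.0032. Of all tested genes 28.4% fell and 29.2% rose with the combination, 8.18% fell and 6.92% rose with gilteritinib, and 8.95% fell and 10.1% rose with MI-3454. All 4 other SOCS genes were tested. With the combination SOCS7 fell (-0.47 ± 0.11) and SOCS5 rose (0.56 ± 0.14), with a list median of -0.05, and without DMSO 2 the number that fell was 2. Of 9 genes for Janus kinases and other STAT proteins, 8 were tested, with a median of 0.35. With the combination JAK3, a kinase used by the common gamma chain receptors, fell by 3.19 ± 0.33, and 5 rose, among them STAT2 (1.01 ± 0.11), JAK2 (0.80 ± 0.13) and TYK2 (0.46 ± 0.11).

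Receptor genes changed in both directions. Of 14 receptors that can signal through STAT5, 9 were tested, and 4 fell and 4 rose with the combination (44.4% each), with a median of -0.11. IL2RA, the alpha chain of the IL-2 receptor and itself a STAT5 target, is counted here and in the list of STAT5 targets below. With MI-3454 it had 1.08 CPM (30 reads), against 55.2 CPM with DMSO. IL2RA had 2 reads over the combination libraries, 1 read with gilteritinib and 1706 reads with DMSO. These counts give ratios of 775-fold lower with the combination (95% interval 214 to 6407) and 1622-fold lower with gilteritinib (291 to 64095), which cover counting error only. IL2RB had 2 reads with the combination and 74 with DMSO, 33.6-fold lower (8.99 to 283). IL7R fell in all 3 comparisons, with log2 changes of -5.33 ± 0.23 with the combination, -4.77 ± 0.18 with gilteritinib and -2.76 ± 0.20 with MI-3454. FLT3, the target of gilteritinib, also fell in all 3, with log2 changes of -1.87 ± 0.11 with the combination, -0.42 ± 0.12 with gilteritinib and -1.61 ± 0.14 with MI-3454. Its call with gilteritinib (edgeR adjusted p = 0.0326) was lost without gilteritinib 1, 2 or 3 or DMSO 1 or 3 (from 0.0749 to 0.146).

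A list of 16 other STAT5 target genes held 15 reported to be induced and BCL6, which STAT5 is known to repress in some cells. Of the 16, 13 were tested, and with the combination 8 fell and 2 (BCL6 and ID1) rose, with a median of -0.83. Without BCL6, left out after its values were seen, 8 of 12 fell and 1 rose, with a median of -1.10. Besides IL2RA, RGS1 fell by 4.03 ± 0.30, the cytokine gene OSM fell by 3.92 ± 0.20 and the cyclin gene CCND2 fell by 3.29 ± 0.12. OSM had 1.37 ± 0.168 CPM with the combination, 6.0 ± 0.413 CPM with gilteritinib, 3.12 ± 0.738 CPM with MI-3454 and 21.2 ± 1.15 CPM with DMSO (SD, n = 3 each). With gilteritinib 7 of the 13 fell, with a median of -0.40, OSM at -1.81 and CCND2 at -1.69, and BCL6 was the 1 gene that rose. With MI-3454 6 fell, with a median of -0.32, and BCL6, CCND3, ID1 and PTGER4 rose. Of the last 3, CCND3 was lost without MI-3454 1 or 3, ID1 without MI-3454 3, PTGER4 without MI-3454 2, and all 3 without DMSO 1 or DMSO 3. BCL6 was called higher in all 3 comparisons, at 2.26 ± 0.18 with the combination, 1.14 ± 0.20 with gilteritinib and 1.73 ± 0.20 with MI-3454.

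**Figure D5:**
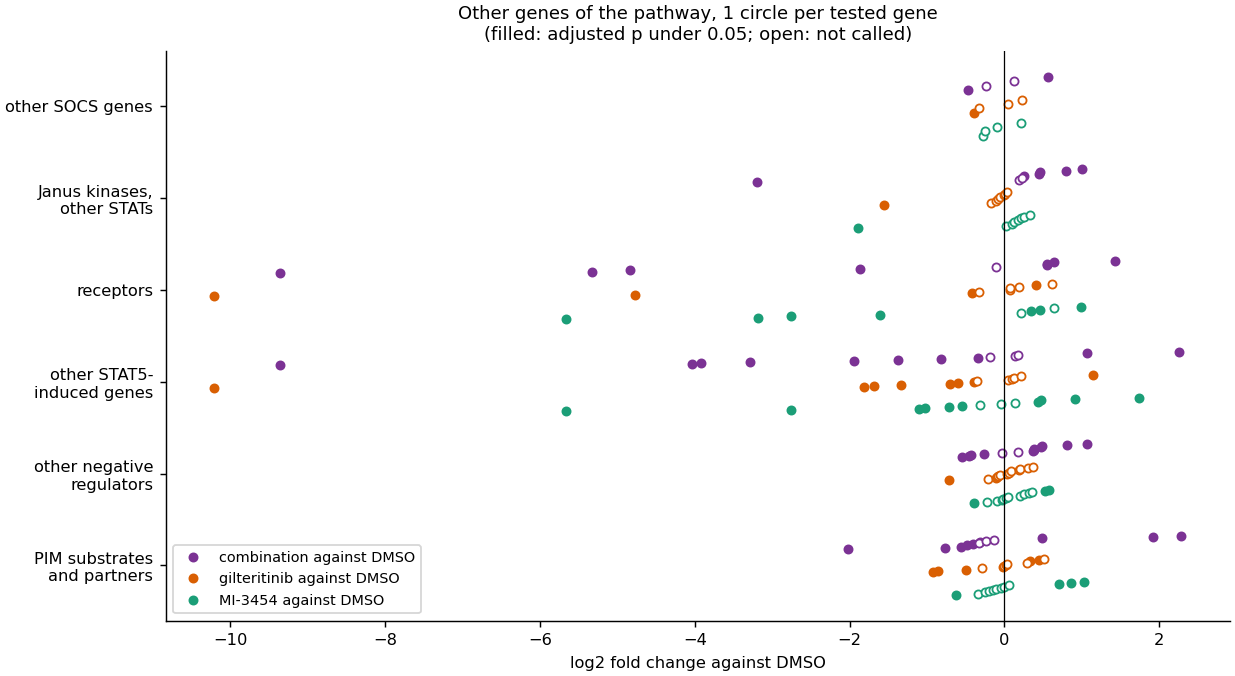
Log2 fold change against DMSO of each tested gene in 6 lists, with the combination above gilteritinib and MI-3454 in each row. Filled circles passed edgeR's test and open circles did not, and the leftmost circles of the combination and gilteritinib are IL2RA, with 1 or 2 reads. IL7R lies at -5.33, -4.77 and -2.76 in these comparisons, while the other SOCS genes stay between -0.47 and 0.56.

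Of 13 other negative regulators of JAK-STAT signalling, all were tested, and with the combination 4 fell (30.8%) and 7 rose (53.8%), with a median of 0.37. The phosphatase gene PTPRJ rose 1.06 ± 0.10, the ubiquitin ligase gene CBLB 0.81 ± 0.13 and PTPN2 0.49 ± 0.12, and PTPN6 fell by 0.55 ± 0.12. The number that rose was 4 without combination 2. All 12 PIM substrates and partners were tested, and with the combination 6 of 12 fell and 3 rose (25.0%), with a median of -0.32. The share that rose was near that of all tested genes, as was the share of the negative regulators that fell. EIF4EBP1, a brake on translation that PIM kinases are known to help inactivate, fell by 2.02 ± 0.14 and CBX3 fell by 0.77 ± 0.15. FOXO1, a transcription factor that PIM1 can phosphorylate, rose 2.28 ± 0.20, and CXCR4, the chemokine receptor, rose 1.92 ± 0.10.

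With gilteritinib, JAK3 (-1.56 ± 0.26) was the called gene among Janus kinases and other STATs, and the number that fell was 2 without DMSO 2. SOCS7 (-0.39 ± 0.10) was the called gene of the other SOCS genes, and the number that fell was 0 without gilteritinib 1, 2 or 3, DMSO 1 or DMSO 3 and 2 without DMSO 2. Of the receptors 3 fell, and CSF3R rose (0.40 ± 0.11), a call lost without gilteritinib 1, 2 or 3 or DMSO 1 or 3. The number of receptors that rose was 0 without gilteritinib 2 or 3 or DMSO 1 or 3, and 2 without DMSO 2. SH2B3, an adaptor that restrains JAK2, fell by 0.71 ± 0.10. It was the 1 called gene of the 13 negative regulators (7.69%), a share near the 8.18% of all tested genes that fell. Of the PIM substrates 3 fell, with FOXO1 at -0.92 ± 0.27 and EIF4EBP1 at -0.86 ± 0.15, and 1 fell without gilteritinib 1, gilteritinib 3, DMSO 1 or DMSO 3. Of the same list 2 rose, a number that was 0 without gilteritinib 1, 2 or 3 or DMSO 3 and 1 without DMSO 1. With the replicate number as a block, 17.6% of all tested genes fell and 17.7% rose. With it, 2 of the 4 other SOCS genes fell. Of the 9 tested receptors 2 rose, and of the 13 tested STAT5 targets with BCL6 counted 2 rose. Of the 13 negative regulators 3 rose, and of the 12 PIM substrates 4. For receptors, STAT5 targets and negative regulators the share that rose was near that of all tested genes.

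With MI-3454, JAK3 fell by 1.89 ± 0.29, and of the receptors 4 fell and 3 rose, CSF3R at 0.99 ± 0.14 among them. The number of receptors that rose was 1 without MI-3454 1, DMSO 1 or DMSO 3. Among the negative regulators PTPRJ (0.57 ± 0.11) and CBLB (0.53 ± 0.15) rose, and 1 rose without MI-3454 1, MI-3454 2 or DMSO 1. SH2B3 fell by 0.40 ± 0.11, the 1 of 13 that fell (7.69%), near the 8.95% of all tested genes. None of that list fell by edgeR's test without MI-3454 1, MI-3454 2, DMSO 1 or DMSO 2. Of the PIM substrates FOXO1 (1.03 ± 0.26), CXCR4 (0.86 ± 0.11) and FOXO3 rose. EIF4EBP1 fell by 0.63 ± 0.17, the 1 of 12 substrates that fell (8.33%), also near the share of all tested genes. The number of substrates that fell was 0 without MI-3454 1 or MI-3454 2 and 2 without DMSO 2. Of the 12 substrates, FOXO1 thus stood at 2.28 with the combination, -0.92 with gilteritinib and 1.03 with MI-3454, each called in its own comparison against DMSO. The call with gilteritinib (edgeR adjusted p = 0.0416) was lost without gilteritinib 1, 2 or 3 or DMSO 1 or 3 (from 0.0643 to 0.135), without the 4 libraries highest in RN7SL1 (0.0639) and by DESeq2's Wald test (0.0985), and the call with MI-3454 was lost without MI-3454 1 (0.0827).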

How the data were processed

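The authors deposited whole-number counts of reads per gene, 1 file for each of 12 libraries, with 60668 genes and 5 summary lines in HTSeq's format and no normalization. Per the submitters' processing notes, the tools were HTSeq 0.11.2, STAR 2.7.1a, cutadapt 2.1 and DESeq2 and the build was GRCh38, with no role stated for each. Per the labels' protocols, ribosomal RNA was depleted before TruSeq libraries were made. Whether the counting used strand, and on which annotation, is not given in the sources used here, so reads of a gene and of an overlapping antisense gene may not be told apart. Groups and replicate numbers came from the sample titles. The 9 members, the gene lists, the tests and the rule for named genes were chosen with earlier results of these data known.

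Symbols were matched for 60295 identifiers, and coordinates and exon lengths came from GENCODE release 29 on GRCh38. Genes were tested with edgeR 4.0.16 and limma 3.58.1 in R 4.3.3 if they passed filterByExpr with 4 groups over the 12 libraries (13972 of the 30849 genes with at least 1 count). A separate quasi-likelihood fit of 6 libraries with TMM scaling served each comparison of a pair of groups, and the interaction was fitted to all 12. Benjamini-Hochberg adjustment covered all tested genes. CPM is per 1e6 counts of tested genes. Intervals of ratios of few reads are exact at 95%. The tests were tried on simulated data first. No pair of files held identical counts.

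Named genes were all 9 members, up to 4 called genes of each list with the largest log2 change in a comparison against DMSO, and for each member called with the combination the 3 genes with the highest Pearson r of log2 CPM (prior count 2). ID1, CCND3 and PTGER4 were named after their values were seen, and the count without BCL6 was added after seeing the data. Between gilteritinib and DMSO, deviations of same-numbered libraries from their group means correlated across genes at 0.14, 0.39 and 0.11. As each was over 0.1, the replicate block is given beside the main counts of that comparison. Pairs of other number there ranged from -0.30 to 0.21, the highest being gilteritinib 1 and DMSO 3. The 0.39 is of gilteritinib 2 and DMSO 2, each the highest of its group in RN7SL1. MI-3454 3 and DMSO 2, also such libraries, correlated at 0.51. Whether the numbers pair the libraries was not tested. Alternatives were DESeq2 1.42.0 (its size factors and its Wald test), total counts as the library size, no filter on low counts, all 12 libraries in 1 fit, the replicate number as a block, each library left out in turn, the 4 libraries highest in RN7SL1 left out, and the longest transcript as the gene's length. Protein sequences were not used here.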

Additional observations from a re-analysis of the deposited data

Results flagged for a closer look

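For 6 of the 9 members, the change with gilteritinib differed according to whether MI-3454 was present, by the interaction term of the fit to all 12 libraries (edgeR quasi-likelihood, adjusted over all 13972 genes). The difference on the log2 scale was 2.17 ± 0.16 (SE) for PIM1 (adjusted p = 3e-07), 1.69 ± 0.32 for SOCS1 (0.00266) and 0.87 ± 0.18 for CISH (0.0048). It was -1.29 ± 0.18 for SOCS2 (adjusted p = 0.000271), -1.21 ± 0.13 for PIM2 (1.52e-05) and -0.56 ± 0.17 for PIM3 (0.0352). Among all tested genes, 15.3% had such a difference.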

How the results depend on the processing

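Of the members' log2 changes under all alternatives, 677 kept their direction and their side of the threshold, 27 lost and 9 gained a call, and 34 changed sign. None of the called changes changed sign in these alternatives. With each library left out in turn, sign changes gave log2 ranges of -0.049 to 0.024 for STAT5B with the combination, -0.0031 to 0.14 for PIM3 and -0.069 to 0.0063 for STAT5B with gilteritinib, and -0.17 to 0.044 for STAT5A and -0.029 to 0.032 for STAT5B with MI-3454, each against DMSO. For the combination against gilteritinib the ranges were -0.041 to 0.092 for SOCS3 and -0.023 to 0.069 for STAT5B. Against MI-3454 they were -0.28 to 0.32 for SOCS1 and -0.044 to 0.026 for STAT5B. For the interaction they were -0.17 to 0.028 for STAT5A and -0.0078 to 0.078 for STAT5B. Other sign changes were STAT5B at 0.087 (total counts, combination against DMSO), 0.084 (total counts, against MI-3454) and 0.011 (without the 4 libraries highest in RN7SL1, gilteritinib against DMSO), and -0.00030 and -0.00039 (DESeq2 size factors and Wald test, MI-3454 against DMSO). For the combination against gilteritinib, SOCS3 was -0.039 and STAT5B -0.028 with no filter on low counts, and -0.060 and -0.029 without those 4 libraries. SOCS1 against MI-3454 was 0.062 with total counts, 0.021 with the replicate block and 0.27 without those 4 libraries. The interaction of STAT5A was 0.047 with total counts, and that of STAT5B was -0.062 without those 4 libraries.

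Members called higher with the combination numbered 1 (STAT5A) with total counts and without the 4 libraries, against both DMSO and MI-3454, and 0 to 1 with 1 library left out. Against gilteritinib 1 was called higher when all 12 libraries were fitted together. With gilteritinib 1 was called higher with total counts and 0 to 2 with 1 library left out, and with MI-3454 1 (SOCS3) with all 12 libraries in 1 fit. Genes called with gilteritinib numbered 2110, but 4928 with the replicate block, 4250 without the 4 libraries and 1243 to 3985 with 1 library left out. With MI-3454 there were 2658, and 1678 with the block. In that comparison same-numbered libraries correlated at 0.20, -0.31 and -0.39. For the combination against MI-3454, 4075 genes were called, and 2456 to 5074 with 1 library left out. For the interaction 2136 were called, 3478 without the 4 libraries and 1305 to 2698 with 1 left out. The replicate block changed the call of SOCS3 with gilteritinib (adjusted p = 0.0121) and of PIM3 in the interaction (0.0648) and no other member's call. The causes were not tested. SOCS2 with the combination rests on 29 to 35 reads per library, which limits its precision.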
